A study of Mus musculus with 12 samples.

Results

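The guanylate-binding proteins (GBPs) are a family of large GTPases induced by interferon, and the mouse genes lie in a cluster on chromosome 3 and another on chromosome 5. The family was taken by gene symbol from the deposited tables, and its 10 members are Gbp2, Gbp2b, Gbp3, Gbp4, Gbp5, Gbp6, Gbp7, Gbp8, Gbp9 and Gbp10, out of 55335 genes in each library. No expression value was used to choose them, and all 10 members passed the filter on low counts. RNA was sequenced from 12 samples of bone marrow-derived dendritic cells (BMDCs) of C57BL/6 mice. Marrow was grown for 6 days with GM-CSF, a growth factor that turns precursors into dendritic cells, and per the study's methods the floating cells that carry the dendritic cell protein CD11c were then selected with magnetic beads. The 4 groups, of 3 biological replicates each, were WT and KO, both unstimulated, and WTL and KOL, stimulated for 3 h with 100 ng/ml of LPS, the bacterial cell wall component recognised by TLR4. WT and WTL cells came from CreER mice, whose Ctcf alleles were intact, and KO and KOL cells from CreER;CTCF fl/fl mice, in which 4-hydroxytamoxifen (4-OHT) was used on the first day of culture to delete Ctcf, the gene of the chromatin boundary factor CTCF. The inducible recombinase was therefore carried by every group, driven from the Rosa26 locus, and the mice were adults. The sources do not state clearly whether WT cultures received 4-OHT, and if they did not, the effects of 4-OHT and of CTCF depletion cannot be told apart.

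GBPs are made in response to interferon and bind to the surface of bacteria and of the vacuoles that hold intracellular parasites. There they assemble into coats, recruit caspase-11 and open the pathogen membrane, so that LPS and DNA reach the caspase-11 and AIM2 inflammasomes. In dendritic cells and macrophages LPS is known to induce them largely through interferon beta, which acts back on the cell through factors such as STAT2, IRF9 and IRF1. Gbp2, Gbp5 and Gbp2b (the mouse gene formerly named Gbp1) are the members whose products carry a prenylation signal for anchoring in membranes.

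The stretches below show the sequence that interferon-activated factors recognise, as it stands just upstream of the chromosome 3 genes. Promoters from RefSeq on GRCm38.p6 were matched to 5 members, Gbp5, Gbp7, Gbp3, Gbp2b and Gbp2. Gbp4, Gbp6, Gbp8, Gbp9 and Gbp10 had no entry. Matches were sought on both strands within 250 bases before the start site for the interferon-stimulated response element (ISRE, the letters GAAA, any 2 bases, then GAAA), the gamma-activated site of interferon-responsive genes (GAS, letters TTCNNNGAA) and the kappaB motif bound by NF-kB. Each of the 5 genes had a promoter with an ISRE, compared with 2.98% of all 32851 promoters of the same length, a rate per promoter and not per gene. Gbp3 had a further promoter entry (chr3:142560106-142560355), which held no match to any of these motifs and is not shown. In each gene the match lay on the minus strand, opposite to the gene, so that it reads as its reverse complement in these stretches of 30 bases, with the match in capitals and Gbp3 holding 2 overlapping matches.
Gbp5 (chr3:142496759-142496788): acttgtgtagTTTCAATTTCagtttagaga
Gbp7 (chr3:142530273-142530302): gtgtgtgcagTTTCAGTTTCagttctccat
Gbp3 (chr3:142559992-142560021): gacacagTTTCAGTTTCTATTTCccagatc
Gbp2b (chr3:142594700-142594729): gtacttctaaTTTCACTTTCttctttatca
Gbp2 (chr3:142620594-142620623): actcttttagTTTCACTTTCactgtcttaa
Counted back from the start site, the ISRE began at base 165 in Gbp5, 53 in Gbp7, 45 and 39 in Gbp3, 137 in Gbp2b and 59 in Gbp2.

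The upstream sequences of Gbp5, Gbp7 and Gbp2b are shown as examples of a window with all 3 motifs, with ISRE and GAS, and with ISRE alone, as Gbp3 and Gbp2 have it too. They are on the plus strand of GRCm38.p6, with every match in capitals, and that of Gbp5 stops where an annotated exon of the gene begins. The RefSeq start site of Gbp5 lies inside the longer GENCODE M21 gene model, and the stretch of Gbp2 shown above reaches into the first exon of its model.
Gbp5 (chr3:142496684-142496899): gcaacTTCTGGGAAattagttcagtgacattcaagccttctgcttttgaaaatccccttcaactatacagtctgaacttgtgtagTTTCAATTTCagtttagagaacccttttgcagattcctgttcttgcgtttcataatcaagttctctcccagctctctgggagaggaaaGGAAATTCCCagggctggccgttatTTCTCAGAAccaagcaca
Gbp7 (chr3:142530086-142530335): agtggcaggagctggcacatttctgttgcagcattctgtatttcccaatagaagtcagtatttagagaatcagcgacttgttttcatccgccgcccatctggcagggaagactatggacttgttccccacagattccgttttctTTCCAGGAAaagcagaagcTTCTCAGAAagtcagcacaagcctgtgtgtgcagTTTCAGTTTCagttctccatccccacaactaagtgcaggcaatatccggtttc
Gbp2b (chr3:142594597-142594846): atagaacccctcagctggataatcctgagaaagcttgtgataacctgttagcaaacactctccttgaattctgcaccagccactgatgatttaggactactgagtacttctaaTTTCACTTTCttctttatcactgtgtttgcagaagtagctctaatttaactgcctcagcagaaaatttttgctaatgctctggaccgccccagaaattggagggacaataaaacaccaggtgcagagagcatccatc
Gbp5 and Gbp7 each had 2 GAS matches, a motif found in 7.02% of all promoters, and Gbp3, Gbp2b and Gbp2 had none. Gbp5 alone of the 5 had a kappaB match, which 7.25% of all promoters held. Matches of different motifs did not overlap. A match describes the letters and is not a measured binding site, and no relation between matches and the size of a response was tested.

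The libraries held 12769773 to 16586334 expected counts, RSEM estimates that split an ambiguous read over the genes it matches. Ribosomal RNA genes took 5.165% of WTL replicate 2 and at most 1.185% of any other library. Ctcf RNA was 549 ± 29 normalized counts in KO and 1004 ± 40.8 in WT (SD, n = 3), a fold of 0.547 (adjusted p = 3.9e-07 edgeR quasi-likelihood test, Benjamini-Hochberg method, as for all adjusted p-values here), and 540 ± 20.4 in KOL against 816 ± 70.4 in WTL. Normalized counts are scaled by TMM to a common effective library size. Markers of dendritic cells, led by Cd74, summed to 7367 to 15751 TPM over all libraries. Markers of T cells and B cells summed to at most 1.71 TPM in any library.

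The 10 members differed widely in level in unstimulated WT cells, and most of the family's RNA came from the chromosome 3 cluster. Levels are given in TPM, which is scaled by gene length and so allows genes to be compared. Gbp2 had the highest mean in every group, with 190 ± 3.25 TPM in WT (SD, n = 3), followed by Gbp3 with 42.8 ± 2.47 and Gbp5 with 20.1 ± 0.223. Gbp7 was at 9.79 ± 0.255 TPM and Gbp8 at 8.19 ± 0.605. Gbp9 (6.37 TPM) and Gbp4 (6.32 TPM) overlapped between libraries and could not be ordered, and Gbp6 stood below them at 4.45 TPM. Gbp2b and Gbp10 were at the bottom, at 0.893 and 0.307 TPM. The order was not the same after LPS. In WTL Gbp2 (563 ± 83.1 TPM) and Gbp5 (458 ± 61.8) overlapped at the top, Gbp3 followed at 169 ± 26.8, and Gbp4, Gbp6 and Gbp7 overlapped between 54.7 and 59.5. In KOL Gbp2 stood above Gbp5 without overlap, at 359 ± 33.3 against 236 ± 20.5 TPM. Gbp2b and Gbp10 stayed under 3 TPM in every library.

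**Figure D1:**
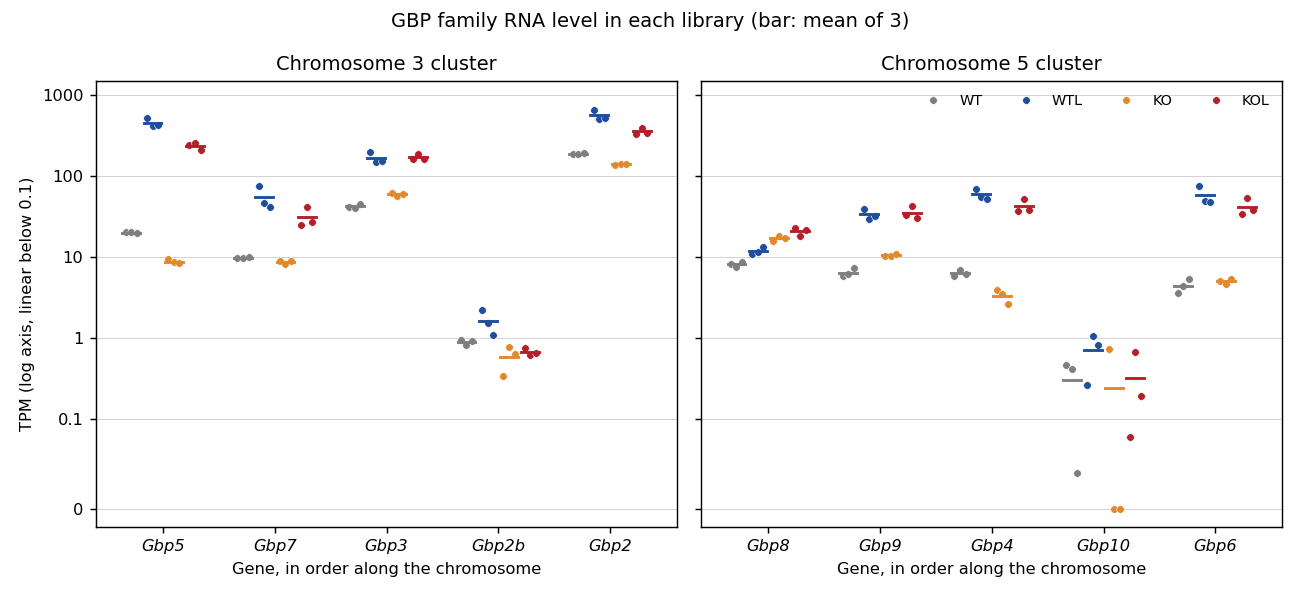
TPM of each GBP gene in each of the 12 libraries on a log axis that is linear below 0.1, by cluster, with points for libraries and bars for the means of 3. Gbp5 moves from 20.1 TPM in WT to 458 in WTL, next to Gbp2 at 563, while Gbp8 stays between 8.19 and 21.1 in all group means.

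Reads of near-identical copies limit the resolution for some members. On the GENCODE M21 transcripts, 64.5% of the 100-base windows of Gbp6 and 73.5% of those of Gbp10 also occur in another gene. For Gbp10 the sharing was with Gbp6 (60.1% of its windows) and with Gm43302, a read-through gene annotated across Gbp10 and Gbp6 (63.6%). Gbp7 shared 9.6% of its windows with Gm43802, a processed pseudogene that lies inside Gbp7. The other members shared at most 4.4%, and Gbp2 and Gbp2b shared no 100-base window with any gene. The expected counts of Gbp2, Gbp2b and Gbp5 were whole in all 12 libraries, whereas those of Gbp7 were fractional in all 12 and those of Gbp6 in 11. Gbp10 and Gbp6 are therefore reported as uncertain, and the same holds for Gbp8, Gbp9 and Gbp4, whose annotated genes overlap on the same strand and whose upper ends, from which they are transcribed, lie within 105139539 to 105139586 of chromosome 5.

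LPS raised the RNA of every member in WT BMDCs. All 10 passed an adjusted p-value under 0.05 and a fold above 2, and in all 10 the 3 WTL libraries lay above the 3 WT libraries. Of the 14008 genes tested, 12.6% were called higher by this rule, 9.99% were called lower and 31.8% were higher without overlap. The median log2 fold change was 2.97 over the members and -0.0181 over all genes. In bulk RNA of a culture, fewer cells that express a gene and less RNA per cell cannot be told apart, here and in every comparison.

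The response was steepest for Gbp5, which promotes activation of the NLRP3 and caspase-11 inflammasomes. Its normalized counts were 602, 623 and 616 in WT and 22808, 19340 and 18511 in WTL. The groups were far apart, 32.9-fold in the fit (log2 fold change 5.04, SE 0.10, adjusted p = 5.3e-14). Gbp6 followed with a log2 fold change of 4.19 (SE 0.20), from 136, 164 and 185 to 3850, 2693 and 2353 counts. WTL replicate 1 was the highest library for Gbp6, as it was for 8 of the 10 members.

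Gbp4, which restrains the interferon regulator IRF7, rose 13.9-fold, from 182 to 191 counts in WT to 2370 to 2863 in WTL. Gbp7 (8.13-fold), Gbp9 (7.59-fold) and Gbp3 (5.5-fold) rose by less. Gbp7 is known for linking phagosomes to the NADPH oxidase. Gbp2, which coats bacteria and parasite vacuoles, started from the highest level and rose 4.27-fold, from 4453, 4479 and 4685 to 22077, 18528 and 17485 counts (log2 fold change 2.09, SE 0.10, adjusted p = 1.5e-10). Here too WTL replicate 1 was the highest library and no library of WT reached the WTL range.

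Gbp8 and Gbp2b rose least. Gbp8 went from 170, 172 and 203 counts in WT to 334, 390 and 392 in WTL, 2.05-fold, with a 95% interval of 0.83 to 1.25 for its log2 fold change, which spans the cutoff. Leaving out WT replicate 1 (0.91), WT replicate 2 or WTL replicate 3 brought the Gbp8 value below the cutoff. Gbp2b went from 22.6 to 25.1 counts to 41.5 to 83.6, or 2.56-fold (adjusted p = 0.00071). Gbp10 had 6 counts over the 3 WT libraries and 47 over the 3 WTL libraries, a ratio of 10.3 with a 95% counting interval of 4.41 to 29.6. Intervals of this kind cover counting error only. On the TPM scale the median of all tested genes fell by 0.53 on the log2 scale between WT and WTL, and by 0.02 for normalized counts. Folds between groups are therefore taken from counts, and with limma on log2(TPM + 1) the log2 fold changes of Gbp8 (0.50) and Gbp2b (0.44) were below the 2-fold cutoff.

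**Figure D2:**
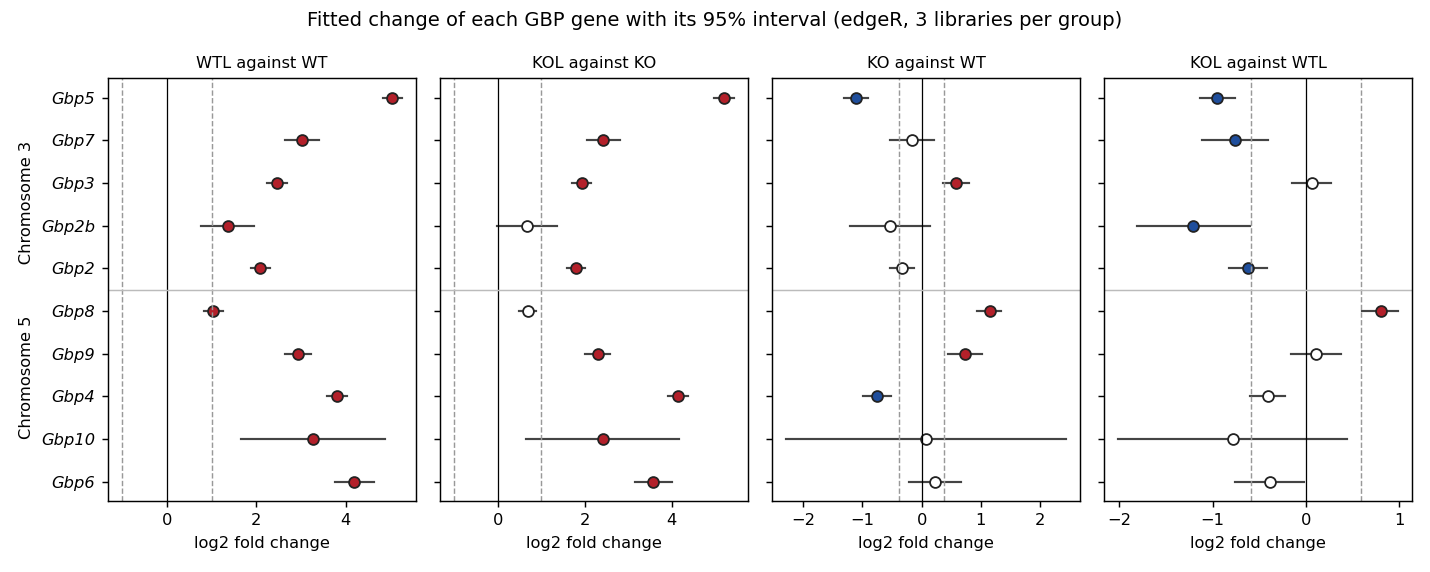
Fitted log2 fold change of each GBP gene (points) with its 95% interval (lines) in 4 comparisons of 3 against 3 libraries; filled points are called, dashed lines are the fold cutoffs. All 10 genes lie above 1 in WTL against WT, from 1.04 for Gbp8 to 5.04 for Gbp5, while in KO against WT they lie on both sides of 0, from -1.11 to 1.15.

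CTCF depletion moved the unstimulated members in both directions. Of the 10 members, Gbp3, Gbp8 and Gbp9 were higher in KO than in WT, and Gbp4 and Gbp5 were lower, at an adjusted p-value under 0.05 and a fold above 1.3. By this rule 17.3% of the genes tested were higher and 17.2% lower, so that 3 higher and 2 lower of 10 is close to the background. The median over the members was -0.05 and that over all genes -0.0137. In 3 members the groups did not overlap with KO higher and in 5 with KO lower, against 31.9% and 32.3% of all genes.

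The changes of single members were larger than the spread between libraries. Gbp5 had 602, 623 and 616 normalized counts in WT and 303, 275 and 274 in KO, with all KO libraries below all WT libraries. Its log2 fold change was -1.11 (SE 0.10, adjusted p = 3.6e-07). Gbp4 fell from 184, 191 and 182 to 122, 104 and 104 counts (log2 fold change -0.75, SE 0.11, adjusted p = 6.3e-05). Its neighbours on chromosome 5 went the other way. Gbp8 rose from 170, 172 and 203 counts in WT to 369, 430 and 409 in KO (log2 fold change 1.15, SE 0.10, adjusted p = 2.4e-07). This was a 2.21-fold rise, and the rise of Gbp8 upon LPS, taken against the same WT libraries, was 2.05-fold. Gbp9 rose from 270, 292 and 340 to 502, 512 and 488 counts, 1.66-fold (adjusted p = 0.00056). On chromosome 3, Gbp3 rose from 1023, 1042 and 1108 to 1630, 1548 and 1583 counts, 1.5-fold (adjusted p = 0.00026).

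The remaining members were not called. Gbp2 had 3592 to 3629 counts in KO and 4453 to 4685 in WT. These groups did not overlap, and its log2 fold change of -0.33 (adjusted p = 0.0093) was within the fold cutoff, and without WT replicate 1 it was -0.38 and called. For Gbp7 the log2 fold change was -0.17 with a 95% interval of -0.54 to 0.21, and for Gbp6 it was 0.23 with an interval of -0.22 to 0.67. The 95% interval of Gbp2b ran from -1.21 to 0.15. Gbp10 had 6 counts in each group, 2 of the KO libraries were at 0, and its interval of -2.29 to 2.45 does not allow a change in either direction to be detected at this depth.

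Markers of other cell types also differed between KO and WT, although the cells had been selected for CD11c, a step that removes most cells without this protein. Of all genes tested, 17.3% were called higher in KO and 17.2% lower. Of 6 neutrophil and granulocyte precursor markers, led by S100a8, 4 were called lower in KO, and their summed level was 191 to 223 TPM in KO against 365 to 389 in WT. Of 6 macrophage or monocyte markers, led by Csf1r, 2 were called higher and 3 lower, with sums of 792 to 811 TPM in KO and 527 to 574 in WT. Of 5 NK cell markers 1 was called lower and 0 higher, with sums of 5.53 to 8.11 TPM in KO against 31.9 to 39.5 in WT. Klrk1 was the most abundant, at a mean of 5 TPM in KO and 34.6 in WT, while Klrb1c was at 2.17 and 1.86. Ncr1, Prf1 and Gzma were under 1 TPM in all libraries, as was Elane. Of 8 dendritic cell markers 1 was called higher and 4 lower, with sums of 7367 to 7673 TPM in KO and 10787 to 11350 in WT. Gata2, the most abundant of 5 mast cell or basophil markers, was at a mean of 2.87 TPM in KO and 0.563 in WT. Of these 5 markers 1 was called higher and 0 lower. Markers of mast cells or basophils summed to at most 4.47 TPM in any library, with 4 of 5 under 1 TPM throughout. Those of plasmacytoid dendritic cells summed to 166 to 174 TPM in KO and 198 to 209 in WT, nearly all from Bst2, with Siglech under 1 TPM. The part of these differences in the levels of the GBP genes was not tested.

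After LPS the chromosome 3 members were mostly lower in CTCF-deficient cells. In KOL against WTL, with a fold cutoff of 1.5, Gbp2, Gbp2b, Gbp5 and Gbp7 were lower and Gbp8 was higher. This makes 4 lower and 1 higher of 10, against 12.5% of all genes tested in either direction. All 4 lower members lie in the chromosome 3 cluster, where Gbp3 was the exception. In 5 members KOL lay below WTL without overlap, against 24.4% of all genes, and in 1 member above it, against 21.9%. The median log2 fold change was -0.52 over the members and -0.0348 over all genes. In these cells selected for CD11c, neutrophil markers summed to 286 to 331 TPM in KOL and 337 to 427 in WTL. NK cell markers summed to 6.63 to 8.86 and 25 to 33.4 TPM, and mast cell or basophil markers to 2.6 to 4.47 and 0.47 to 1.51. The NK cell difference came from Klrk1, with means of 6.84 TPM in KOL and 28.2 in WTL. Klrb1c went the other way, at 0.893 and 0.497 TPM. The mast cell or basophil difference came from Gata2, at 3.37 and 0.227 TPM. The other 4 markers of that list were under 1 TPM in every library and moved in both directions. The sums of dendritic cell (11012 to 15751 and 10664 to 14700 TPM) and macrophage or monocyte markers (306 to 410 and 253 to 336) overlapped. Those of plasmacytoid dendritic cells also overlapped (536 to 707 and 564 to 702 TPM). The part of these marker levels in the results was not tested.

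Gbp5 had 22808, 19340 and 18511 normalized counts in WTL and 10328, 11519 and 9649 in KOL. Every KOL library was below every WTL library, 1.93-fold lower in the fit (log2 fold change -0.95, SE 0.09, adjusted p = 7.7e-07). Gbp2 was at 22077, 18528 and 17485 in WTL and reached 11386, 14096 and 12296 in KOL, again with no overlap (-0.62 on the log2 scale, SE 0.09, adjusted p = 7.6e-05). Gbp7 was at 5084, 3554 and 3070 in WTL and 1899, 2858 and 2168 in KOL, 1.69-fold lower (adjusted p = 0.0016). WTL replicate 1 was the highest for both genes. Without this library, the log2 fold changes of Gbp2 and Gbp7 were each -0.52, within the cutoff, and 2 members were called lower. The Gbp2 log2 fold change, KOL against WTL, was -0.55 without KOL replicate 1, also within it.

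Gbp2b had 83.6, 62.8 and 41.5 counts in WTL against 29, 24.6 and 26.7 in KOL (-1.21 on the log2 scale, SE 0.28, adjusted p = 0.003). Its fold of 2.31 was the largest fall in the family and rested on few counts. Gbp8 was the only member called higher, at 660, 619 and 663 counts in KOL against 334, 390 and 392 in WTL (log2 fold change 0.80, SE 0.09, adjusted p = 5.9e-06). Gbp3 and Gbp9, which were higher in unstimulated KO cells, overlapped between KOL and WTL. Their 95% intervals were -0.15 to 0.27 and -0.16 to 0.38. Gbp4 was lower without overlap, at 1840 to 2127 counts against 2370 to 2863, and its fold of 1.33 (adjusted p = 0.0014) was within the cutoff. For Gbp6 the interval was -0.76 to -0.02 (adjusted p = 0.08), and Gbp10 had 28 counts in KOL and 47 in WTL, a ratio of 0.57 with a counting interval of 0.344 to 0.93 that leaves out the spread between libraries (adjusted p = 0.29).

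CTCF-deficient cells still induced most of the family upon LPS. In KOL against KO, 8 of 10 members were called higher, against 15.1% of all genes, and 9 were higher without overlap, against 34.9%, with no member lower without overlap, against 36.3%. The median log2 fold change was 2.35 over the members and -0.0235 over all genes. Gbp5 rose from 303, 275 and 274 to 10328, 11519 and 9649 counts, 36.9-fold, with no library of one group near the other. Gbp4 rose 17.7-fold, Gbp6 12-fold, Gbp7 5.4-fold, Gbp9 4.92-fold, Gbp3 3.82-fold and Gbp2 3.49-fold. Gbp10 was called on a total of 6 and 28 counts, and its libraries overlapped between the groups. Without KO replicate 2, KO replicate 3 or KOL replicate 2 (1.84) its log2 fold change of 2.41 was not called. Gbp8 and Gbp2b were the exceptions. Gbp8 went from 369, 430 and 409 to 660, 619 and 663 counts, 1.61-fold, which is within the cutoff of 2 (adjusted p = 9e-06). Gbp2b had 9.87, 22.1 and 18.5 counts in KO and 29, 24.6 and 26.7 in KOL (adjusted p = 0.078).

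The difference between the LPS responses was tested as the interaction, (KOL - KO) - (WTL - WT). Gbp3 and Gbp9 were called lower, with 2 of 10 members against 8.75% of all genes, and no member was called higher, against 8.70%. By unadjusted p-value 7 of the 10 were under 0.05, Gbp4 with a positive and 6 with a negative value. The share of all genes under this unadjusted level was not taken, so this count has no background to be set against. For Gbp3 the interaction was -0.53 on the log2 scale (SE 0.14, adjusted p = 0.019), from a rise of 2.46 in WT and 1.93 in CTCF-deficient cells. For Gbp9 it was -0.63 (SE 0.19, adjusted p = 0.033), from 2.92 and 2.30. Both genes were higher in KO than in WT, and their KOL and WTL libraries overlapped. These calls depended on single libraries. Leaving out WT replicate 1, WT replicate 2, KO replicate 1 or KOL replicate 1 ended both calls, leaving out WT replicate 3 ended that of Gbp3, and leaving out WTL replicate 1, KO replicate 2, KO replicate 3 or KOL replicate 3 ended that of Gbp9. Without KOL replicate 2 the number of members called lower was 5. For Gbp5 the interaction was 0.17 with a 95% interval of -0.11 to 0.44, although its level differed between the genotypes before and after LPS, and for Gbp4 it was 0.34 (interval 0.04 to 0.64, adjusted p = 0.11). Without WTL replicate 1, Gbp4 was called higher, at 0.42, and Gbp8 lower. Gbp7 (-0.59) and Gbp6 (-0.62) had adjusted p-values of 0.11 and 0.14.

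The makeup of the family's RNA shifted with LPS and with genotype. Summed over the 10 members, TPM was 289 ± 6.87 in WT, 1410 ± 219 in WTL, 255 ± 1.15 in KO and 938 ± 96.1 in KOL (SD, n = 3). Gbp2 made up 65.7 ± 0.714% of this sum in WT and 40 ± 0.299% in WTL, while Gbp5 went from 6.97 ± 0.24% to 32.5 ± 0.744%. In KO the share of Gbp2 was 55.3 ± 0.629% and that of Gbp5 3.45 ± 0.205%, and in KOL they were 38.2 ± 0.843% and 25.2 ± 1.56%. The ratio of Gbp5 to Gbp2, a measure within each library, was 0.103 to 0.109 in WT and 0.802 to 0.828 in WTL. It was 0.0594 to 0.0674 in KO and 0.622 to 0.716 in KOL. No 2 groups overlapped in this ratio, which was lower in CTCF-deficient cells before and after LPS.

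The chromosome 5 members took a larger share in CTCF-deficient cells, 14.2 ± 0.262% in KO and 15 ± 0.86% in KOL, compared with 8.86 ± 0.495% in WT and 11.6 ± 0.329% in WTL. The share of Gbp3 likewise went from 14.8 ± 0.499% in WT to 23.4 ± 0.688% in KO. With the counts of each cluster summed before the fit, so that reads divided among neighbours stay together, chromosome 5 had a log2 fold change of 0.53 (SE 0.12) in KO against WT and chromosome 3 of -0.18 (SE 0.09). In KOL against WTL the same sums gave -0.17 (SE 0.11) for chromosome 5 and -0.65 (SE 0.09) for chromosome 3. Their interactions were -0.70 (SE 0.17, adjusted p = 0.0098) for chromosome 5 and -0.47 (SE 0.13, adjusted p = 0.025) for chromosome 3. Both sums were called lower in the same edgeR test. A sum weighs abundant members most, and its change also depends on the mix of members at the start, which differed between WT and KO. The value of a sum is therefore not the typical value of its members. That of chromosome 5 (-0.70) was lower than those of Gbp9 (-0.63), Gbp6 (-0.62), Gbp8 (-0.35) and Gbp4 (0.34). Only Gbp10 (-0.86), which had few counts, was lower still. Alone, Gbp3 (-0.53) and Gbp9 (-0.63) were called lower, and the abundant Gbp2 (-0.29) and Gbp5 (0.17) were not called. The sums were not refitted with single libraries left out.

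**Figure D3:**
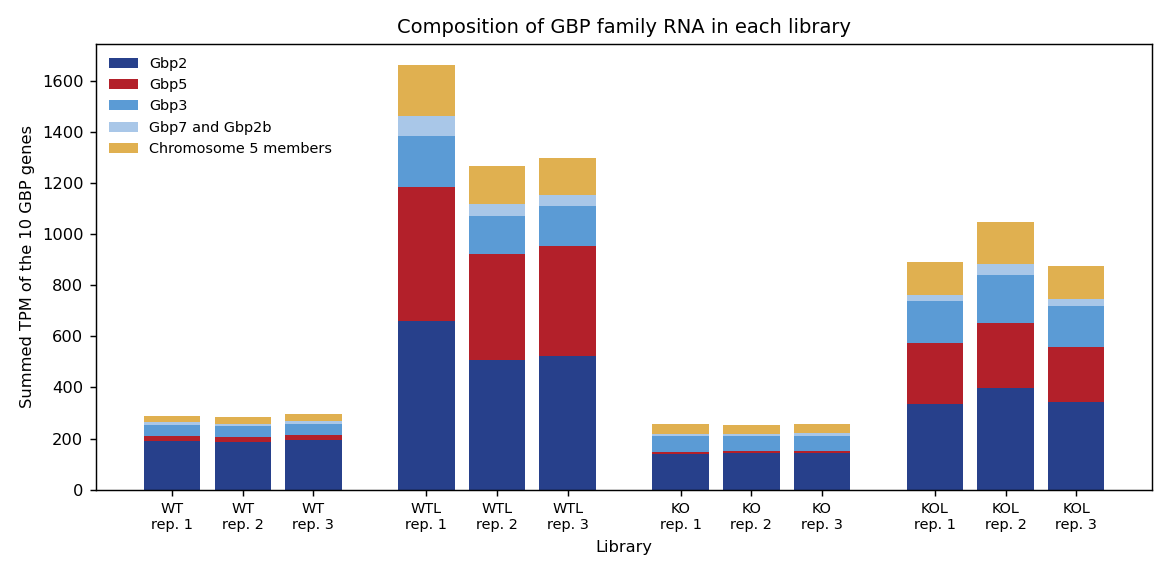
Summed TPM of the GBP family in each of the 12 libraries, stacked by member or group of members. The Gbp5 part is 6.97% of the stack in WT and 32.5% in WTL, and the stacks of KOL reach 876.3 to 1049 TPM against 1268 to 1662 in WTL.

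On the mm10 genome the chromosome 3 genes run from 142493978 to 142638008, in the order Gbp5, Gbp7, Gbp3, Gbp2b and Gbp2, all on the plus strand. The chromosome 5 genes run from 105014150 to 105293698, in the order Gbp8, Gbp9, Gbp4, Gbp10 and Gbp6, all on the minus strand, and all 10 are annotated as protein-coding. Gbp5, which fell in KO, and Gbp3, which rose, are separated by Gbp7 alone, and Gbp4, which fell, overlaps Gbp9 and Gbp8, which rose.

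The nearest tested genes outside the clusters included larger changes. Abcg3, an ATP-binding cassette transporter gene that lies 31.4 kb from the Gbp8 end of the chromosome 5 cluster, had 15.6, 10.1 and 11.2 normalized counts in WT and 530, 453 and 575 in KO. The log2 fold change was 5.40 (SE 0.20, adjusted p = 7.3e-11). Along the chromosome the members were at 1.15 (Gbp8), 0.73 (Gbp9), -0.75 (Gbp4), 0.08 (Gbp10, on few counts) and 0.23 (Gbp6). The ends from which Gbp8, Gbp9 and Gbp4 are transcribed nearly coincide, and a relation to distance was not tested. In KOL against WTL the value was 5.31 for Abcg3. The members, in the same order, were at 0.80, 0.11, -0.41, -0.78 and -0.39. Kyat3, a kynurenine aminotransferase gene 63 kb beyond Gbp2, went from 34.9, 39.4 and 34.6 counts in WT to 127, 153 and 157 in KO (log2 fold change 1.99, SE 0.16, adjusted p = 1.4e-07), while Gbp2 next to it was at -0.33. Both neighbours had a larger log2 fold change in KO against WT than any GBP gene.

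The other neighbours moved by less. Pdlim5, 98.3 kb before Gbp5, was called only after LPS, at 0.86 in KOL against WTL (SE 0.07), whereas Gbp5 was lower. Gtf2b (-0.38), Lrrc8c (-0.58) and Lrrc8d (-0.51) fell in KO against WT, and Pkn2, Lrrc8b, Zfp951 and D930016D06Rik were not called there. Rap1gds1 and Gm43162, the next tested genes beyond Pdlim5, lie over 3000 kb away and were at 0.03 and -0.19. Between the members, Mir6381, a microRNA gene inside Gbp2, was at 0 in all 12 libraries, and the pseudogene Gm43802 inside Gbp7 rose in WTL against WT (log2 fold change 3.05, SE 0.45), as did Gbp7. Gm43302 was at 0 in 7 of 12 libraries and reached 18.98 expected counts at most. Of the other genes with a Gbp symbol, the pseudogene Gbp2-ps was at 0 in all libraries, and Gbp11, a polymorphic pseudogene, had at most 12.09 counts and was not tested.

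**Figure D4:**
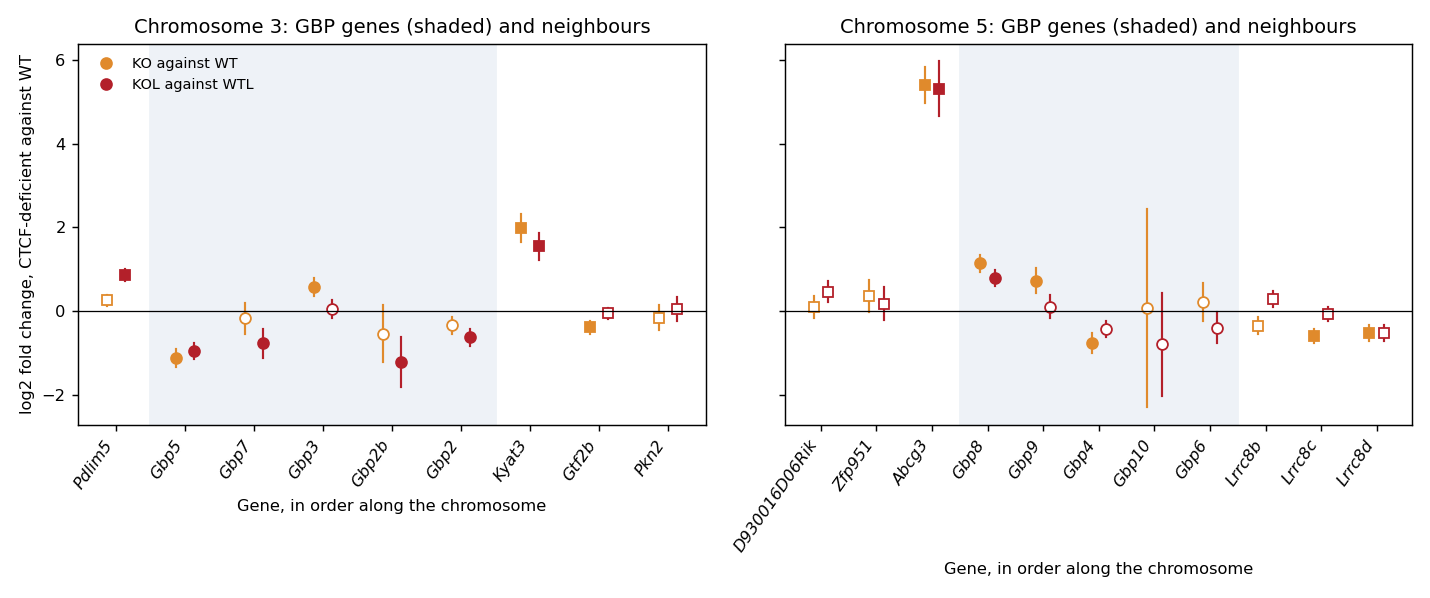
Log2 fold change of KO against WT and of KOL against WTL, with 95% intervals, for the GBP genes (circles, shaded) and their nearest tested neighbours (squares) in order along each chromosome; filled points are called. The distant genes Rap1gds1 and Gm43162 are left out, Abcg3 stands at 5.40 and 5.31, and the GBP genes lie between -1.21 and 1.15.

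Genes that act upstream and downstream of the GBPs were described by list. Interferon signalling held 20 genes, of which 19 were tested. Ifnb1, which encodes interferon beta, had 2 to 5 expected counts per library in WT and 101 to 152 in WTL, and rose (adjusted p = 6.1e-09). In KO it was at 0 in all 3 libraries, and in KOL it had 78 to 136 counts, at least 42.4-fold higher than a floor of 3 counts per library. WTL and KOL overlapped on the normalized scale, at 136 to 162 and 91.3 to 145. Ifng had at most 2 counts in any library and was not tested. In WTL against WT, 13 of the 19 genes were higher and 1 lower, with a median of 1.48. In KO against WT 3 were higher and 7 lower, with a median of -0.13, and in KOL against WTL 0 were higher and 4 lower, with a median of -0.33. In KOL against KO 11 were higher and 0 lower, with a median of 2.15. These 2 medians against KO were the same with Ifnb1 at the floor of 3 counts.

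Among the named genes of this list, Stat2, Irf1, Usp18 and Jak2 fell in KO against WT, as Gbp5 and Gbp4 did. Gbp3 (0.59), Gbp8 (1.15) and Gbp9 (0.73) rose there, as did 3 other genes of the list. A link between these genes and the levels of the GBP genes was not tested. Irf1, an activator of GBP genes, was at 1648 ± 119 normalized counts in WT and 660 ± 28.4 in KO (log2 fold change -1.32, SE 0.08), and at 7355 ± 511 in WTL against 3885 ± 237 in KOL (-0.92 on that scale). Stat2 was at 1974 ± 14.9 in WT and 916 ± 23.4 in KO (log2 fold change -1.11). After LPS Stat2 (-0.35) was within the cutoff of 1.5-fold. Usp18, a brake on interferon receptor signalling, fell from a mean of 452 to 226 counts in KO against WT and was at -0.12 in KOL against WTL, and Jak2, a kinase of the interferon gamma receptor, at -0.50 and 0.01.

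The immunity-related GTPases, which act with GBPs on parasite vacuoles, held 8 genes. All 8 were higher in WTL against WT (median log2 fold change 4.14), against 12.6% of all genes. In KOL against KO all 8 were higher too (4.88), against 15.1%. In KO against WT 0 were higher and 7 lower (median -1.11), against 17.3% and 17.2% of all genes. Of the GBP genes 3 were higher and 2 lower there. In KOL against WTL 2 were lower and 0 higher (median -0.50), against 12.5% in each direction. Irgm1, which regulates the other members of that group, was at 1121 ± 59.6 normalized counts in WT and 639 ± 28.5 in KO (log2 fold change -0.81), Ifi47 was at 485 ± 14.8 and 186 ± 9.8 (-1.38), and Gm12250 was at 104 ± 20.2 and 45.5 ± 4.65 (-1.19).

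Of the 9 genes of the caspase-11 and AIM2 inflammasome route, 6 were higher and 0 lower in WTL against WT (median 1.05). In KO against WT 1 was higher and 4 were lower (median -0.17), in KOL against WTL 0 and 4 (median -0.54), and in KOL against KO 5 and 0 (median 1.23). Casp4, the gene of caspase-11, was at 887 ± 36.4 normalized counts in WT and 359 ± 41.2 in KO (log2 fold change -1.31, SE 0.12), and at 3496 ± 569 in WTL and 1774 ± 117 in KOL (-0.98). Gsdmd, the pore-forming substrate of the caspases, was at -0.54 in both comparisons. It was called in KO against WT alone, as the fold cutoff was 1.3 there and 1.5 in KOL against WTL. Aim2 was at -0.06 and -0.01 and was called in neither. Il1b rose in KO against WT, at 1.29.

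The 13 genes for prenylation and for the ubiquitin-like loading of GBPs onto vacuoles had no call in WTL against WT (median -0.07), where 8 had an adjusted p-value under 0.05, and 8 an unadjusted one, in edgeR without a fold cutoff. In KO against WT 4 were higher and 2 lower (median -0.03), and in KOL against WTL 3 and 1 (median 0.13). In KOL against KO 0 were higher and 1 lower (median -0.02). Atg3, which conjugates the ubiquitin-like proteins, was at 996 ± 20.4 normalized counts in WT and 4459 ± 82.1 in KO (log2 fold change 2.16), and Gabarapl1 at 3239 ± 18.9 and 7999 ± 155, 2.47-fold higher. Gabarap was at -0.08. Of the 7 related large GTPases 6 were tested, with 4 higher in WTL against WT (median 2.24) and 4 in KOL against KO (median 2.58), none lower. In KO against WT 1 was higher and 3 lower (median -0.41), and in KOL against WTL 1 and 0 (median -0.04). The antiviral genes Mx1 (-0.62) and Mx2 (-0.47) and the very large GTPase gene Gvin1 (-1.21) fell in KO.

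The genes most like each cluster over the 12 libraries were sought by Pearson's correlation of log2 CPM with the mean standardized profile of the members. Each member is part of the mean it is set against, which raises its value, and the other genes are not. These values describe 12 libraries that share their 4 groups, and 1444 genes for chromosome 3 and 1268 for chromosome 5 reached a correlation of 0.9. For chromosome 3, Acsl1 (0.996), Itgav (0.995) and Ms4a6c (0.995) were closest, and the members themselves ran from 0.839 for Gbp2b to 0.996 for Gbp2. Acsl1, an acyl-CoA synthetase gene, had 39.3 TPM in WT, 159 in WTL, 28.2 in KO and 97.1 in KOL. For chromosome 5, Fndc3b (0.995), Slfn8 (0.994) and Triobp (0.993) were closest, with members from 0.730 for Gbp8 to 0.992 for Gbp9. Slfn8, a Schlafen gene, had 18 TPM in WT, 185 in WTL, 26.9 in KO and 211 in KOL.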

How the data were processed

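Per the labels and the study's methods, paired-end reads were trimmed with Trim Galore, aligned to mm10 with STAR and quantified by gene with RSEM against GENCODE. The submitters' processing notes give STAR 2.5.1, and the study's reporting summary names a later STAR version. The annotation release and the strand setting are not given in the sources used here. The labels name rRNA depletion and the methods a stranded poly(A) kit. The deposited files hold the expected count, TPM and effective length that the authors obtained with RSEM per gene and library, without pooling.

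Expected counts were rounded, filtered by filterByExpr, scaled by TMM and fitted with edgeR 4.0.16 (R 4.3.3, quasi-likelihood test) over all 12 libraries with a mean per group, and p-values were adjusted over 14008 genes. Calls needed an adjusted p under 0.05 and a fold above 2 (WTL against WT, KOL against KO), 1.3 (KO against WT) or 1.5 (KOL against WTL), with no fold cutoff for the interaction. The SE is the log2 fold change over the square root of F, and 95% intervals use the t distribution with the degrees of freedom of the fit. TPM served for levels. DESeq2 1.42.0 and limma 3.58.1 (log2 of TPM plus 1 or 0.1) were alternatives. Promoter and window searches, summaries and figures were made in Python (3.11.15) using pandas 2.3.3, numpy 2.4.6, matplotlib 3.10.9 and scipy 1.17.1. Gene positions came from GENCODE M21, in which 54587 of 55335 gene IDs matched with version.

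Members, gene lists and tests were chosen with earlier results of these data known. Genes named were the members, Ctcf, other Gbp symbols, genes inside the clusters and the 3 nearest tested genes beyond each end, the 3 most abundant of each list with Ifnb1, Ifng, Irf1, Irgm1 and Casp4 (1 further gene is not reported here), and the 3 genes most correlated with each cluster. In counts simulated for KOL against WTL over 13704 genes, edgeR recovered 46 of 65 genes changed 1.5-fold, 47 of 60 changed 2-fold and 74 of 74 changed 4-fold. For the interaction it recovered 26 of 65, 44 of 60 and 72 of 74. Recovery was counted by an adjusted p under 0.05 and the right direction, without the fold cutoffs of the calls. The simulation gave every gene the same dispersion and changed genes in KOL alone, so it does not give the sensitivity of the reported calls.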

Additional observations from a re-analysis of the deposited data

Results flagged for a closer look

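The LPS response differed between CTCF-deficient and WT cells in 2 of the 10 GBP genes by the edgeR interaction test, with -0.53 for Gbp3 and -0.63 for Gbp9 on the log2 scale, against 8.75% of all genes called lower. Both calls were lost with limma on TPM, that of Gbp9 with the replicate block, and 1 or both without any of 9 single libraries. Of the genes beside the clusters, Pdlim5 (0.60), Gtf2b (0.33), Lrrc8b (0.63) and Lrrc8c (0.52) had a higher LPS response value in CTCF-deficient cells than in WT cells.

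Of the 19 interferon signalling genes tested, 7 were called higher and 7 lower in the interaction, with a median of -0.04. Of all genes tested, 8.70% were called higher and 8.75% lower, the shares to be read beside each list here. The interferon signalling calls named by the rule for genes were Ifnb1, Jak2 (0.52), Stat2 (0.76), Irf1 (0.40) and Usp18 (0.88), all higher. The Ifnb1 call rests on 0 counts in every KO library and 2 to 5 expected counts in WT, so no fold is given for it. The lower calls were Socs3, Irf8, Ifnar1, Batf2, Ifnar2, Irf2 and Nlrc5, named after their values were seen, from -1.11 for Socs3 to -0.39 for Nlrc5. Of the 8 immunity-related GTPases 4 were higher and 0 lower, with 0.44 for Irgm1 and 0.92 for Ifi47, and of the 6 related large GTPases tested 2 were higher and 0 lower, Mx1 (0.35) and Mx2 (0.81). Of the 13 prenylation and loading genes 3 were higher and 2 lower, among them Gabarapl1 (0.29) and Atg3 (-0.57). Of the 9 inflammasome genes 1 was higher and 2 were lower, among them Il1b (-1.47).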

How the results depend on the processing

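Over 11 processing alternatives, 492 of 508 log2 fold changes of members kept their direction and their side of the threshold, and none changed sign. The number of members with a lower interaction, 2, was 4 without the filter on low counts, 0 with limma on log2(TPM + 1) and 0 on log2(TPM + 0.1), where Gbp10 was not tested. The replicate numbers are not known to pair the samples. Correlations of deviations from the group means ran from -0.325 to 0.126 for same-numbered libraries and from -0.306 to 0.367 for the others. A block on the numbers cannot account for any link between libraries of different numbers. With the replicate block the number of members with a lower interaction was 1, as Gbp9 was no longer called, and every other count stayed within 1.5 times. Leaving out 1 library at a time gave 9 to 10 members higher and 0 lower in WTL against WT, 3 higher and 2 to 3 lower in KO against WT, 1 higher and 2 to 4 lower in KOL against WTL, 7 to 8 higher in KOL against KO, and 0 to 1 higher and 0 to 5 lower in the interaction. In KOL against WTL, where neither was called, Gbp3 ran from -0.02 (without WTL replicate 3, and without KOL replicate 2) to 0.18 and Gbp9 from -0.06 (without KOL replicate 2) to 0.22. Gbp10 ran from -3.89 to 0.63 in KO against WT and from -1.42 to 3.11 in the interaction, with -3.89 and 3.11 without KO replicate 1, which leaves KO libraries at 0. The cause of these changes was not tested. The summing of Gbp6 with Gbp10 and Gm43302, and the fit without rRNA genes, were chosen after seeing the data.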
